A study of Sus scrofa with 6 samples.

Results

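Transcripts of 5 genes that make cholesterol or hold its synthesis in check were examined in ovarian follicles of 2 pig breeds. They are HMGCS1, FDPS, SQLE, SC5D and INSIG1, called the core set below. A probe set, the group of short probes that reads 1 transcript, was taken when the probe table of the array gives it the single symbol of a core gene, which held for 6 of the 24123 probe sets on the array, 1 per gene and 2 for INSIG1. A further gene of the set, IDI1, which isomerizes isopentenyl pyrophosphate, was not analysed here, since no probe set carries its symbol in the tables used.

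The follicles came from 3 Chinese Erhualian sows (called Chinese Taihu in the paper) and 3 Large White sows, all multiparous and with normal cycles. Every sow had received 1000 IU PMSG, a gonadotropin with FSH activity that drives follicle growth, and 80 h later 500 IU hCG, which replaces the LH surge that triggers ovulation. The ovaries were taken 30 to 38 h after hCG. One array was hybridized per sow. The breeds were kept on different farms, so that breed and farm cannot be told apart. The values are normalized signal intensities on a linear scale, brought to a common level on every array, so that an overall change in RNA per follicle is not visible in them. Chinese Erhualian sow 1 stood apart from the other sows, with array correlations of 0.834 to 0.887 over the 19196 tested probe sets, and 0.907 to 0.967 among the other 5. Its 8 epithelium markers summed to a signal of 41370, against 1606 to 7686 in the other 5 sows.

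A cell builds cholesterol from acetyl-CoA through mevalonate, the isoprenoid pyrophosphates, squalene and a chain of sterol intermediates. When sterols in the endoplasmic reticulum run low, SCAP carries the SREBP transcription factors to the Golgi for cleavage, and the genes of the whole pathway are then transcribed. INSIG proteins hold SCAP back when sterols are plentiful. In the ovary, cholesterol that is taken up from lipoproteins or made in the cell is the substrate of progesterone, which granulosa and theca cells begin to make in large amounts after the LH surge.

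HMGCS1, the synthase that joins acetyl-CoA and acetoacetyl-CoA ahead of mevalonate, had signals of 391, 4275 and 385 in Chinese Erhualian sows 1 to 3, against 3267, 359 and 476 in Large White sows 1 to 3. One sow of each breed was high and the other 4 lay close together, and the breeds overlapped. In bulk tissue, fewer cells of a type and less RNA per cell cannot be told apart. The means were 1684 ± 2244 and 1367 ± 1646 (SD, n = 3 each), and the log2 difference, Chinese Erhualian minus Large White throughout, was 0.07 (SE 1.22, adjusted p = 1.0 by limma). Its 95% interval ran from -2.88 to 3.01 on the log2 scale.

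FDPS, which condenses isoprenoid units into farnesyl pyrophosphate, had signals of 421, 6004 and 430 in Chinese Erhualian sows, against 6279, 881 and 833 in Large White sows. Chinese Erhualian sow 2 and Large White sow 1 were again the high ones, nearly level with each other at a ratio of 0.956. Chinese Erhualian sows 1 and 3 had the lowest signals, and the breeds overlapped. The log2 difference over all sows was -0.69 (SE 1.27, 95% interval -3.76 to 2.37, limma adjusted p = 0.993).

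SQLE, the monooxygenase that turns squalene into its epoxide, had signals of 287, 2680 and 291 in Chinese Erhualian sows, against 2157, 298 and 441 in Large White sows. The second highest array was 4.89 times the third highest, and the corresponding step was 6.87 times for HMGCS1 and 6.82 times for FDPS. The log2 difference between the breeds was -0.11 (SE 1.11, 95% interval -2.78 to 2.56, limma adjusted p = 1.0). The breeds overlapped, and the difference was 0.20 with array weights.

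SC5D, a desaturase near the end of the sterol chain, departed from this pattern. Its signals were 482, 1160 and 457 in Chinese Erhualian sows, against 497, 183 and 330 in Large White sows. Chinese Erhualian sow 2 was the highest, but Large White sow 1, in second place, was only 1.03 times the third highest array. The means were 699.5 ± 399 in Chinese Erhualian and 337 ± 157 in Large White sows (SD, n = 3 each), and the breeds overlapped. The log2 difference was 1.03 (SE 0.50, 95% interval -0.19 to 2.24, unadjusted p = 0.0845 and adjusted p = 0.993 by limma). An exact permutation test of its 3 arrays against 3 gave p = 0.3 (2-sided), where 0.1 is the smallest p the design allows. Leaving out Large White sow 1 gave 1.37 with an unadjusted limma p of 0.0450.

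**Figure D1:**
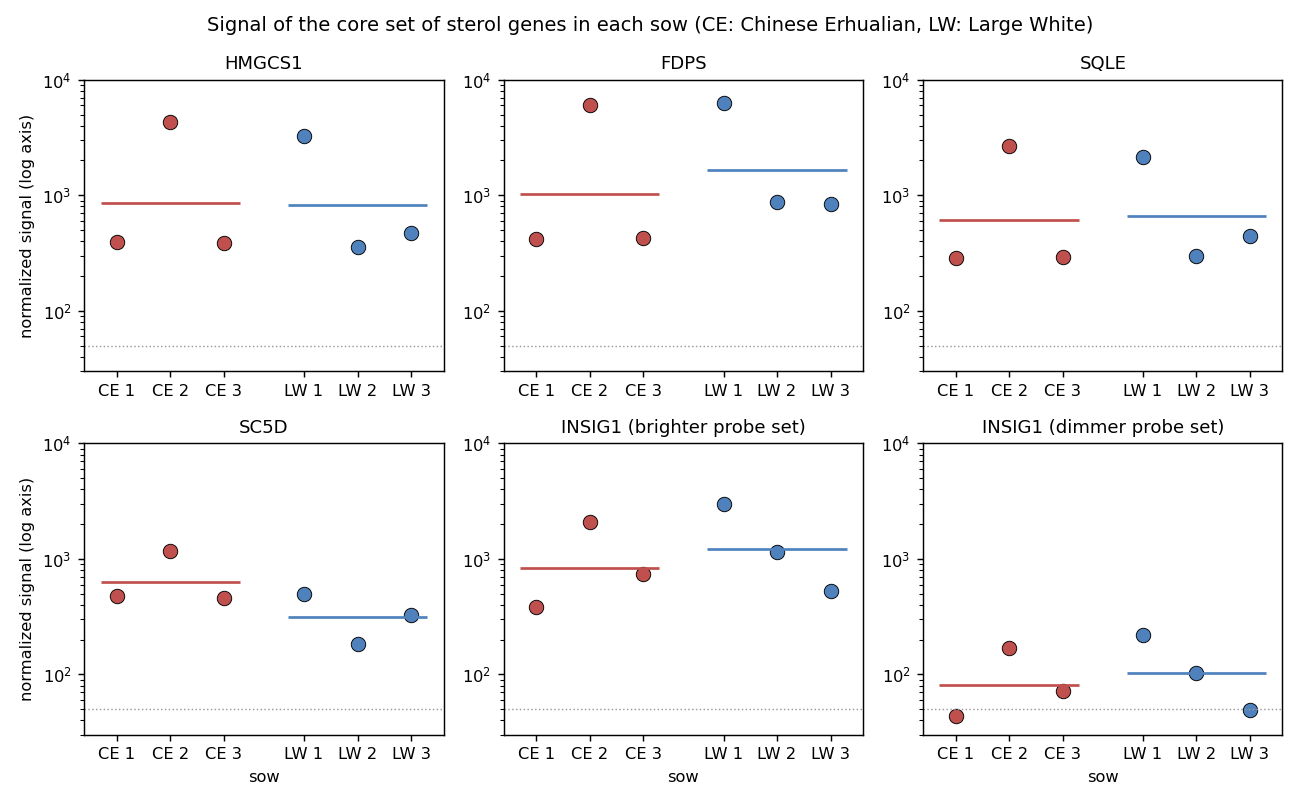
Normalized signal (log axis) of the 6 probe sets of the core set in each sow, 3 Chinese Erhualian (CE, red) and 3 Large White (LW, blue), with the geometric mean of each breed as a line and the signal of 50 used by the filter dotted. CE 2 and LW 1 are the 2 highest arrays in every panel, with FDPS at 6004 and 6279, while in SC5D LW 1 lies at 497 beside CE 1 at 482.

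INSIG1, which retains SCAP in the endoplasmic reticulum and is itself a target of SREBP, was read by a brighter probe set and a dimmer one. The brighter had signals of 381, 2103 and 735 in Chinese Erhualian sows, against 2982, 1147 and 531 in Large White sows. The dimmer had 43.8, 168 and 72.4, against 221, 103 and 48.7 in Large White sows. Both placed the 6 sows in the same order, with Large White sow 1 first, Chinese Erhualian sow 2 second and Chinese Erhualian sow 1 last. The second highest array was 1.83 times the third highest on the brighter and 1.63 times on the dimmer probe set, a smaller step than in HMGCS1, FDPS and SQLE. Their log2 differences between the breeds were -0.54 (SE 0.82, 95% interval -2.52 to 1.44) and -0.35 (SE 0.68, 95% interval -2.0 to 1.29), each with a limma adjusted p of 0.993. The signal of the brighter was 8.70 to 12.5 times that of the dimmer in Chinese Erhualian sows and 10.9 to 13.5 times in Large White sows, and the breeds overlapped on both. The dimmer exceeded a signal of 50 on 4 of the 6 arrays and the other 5 probe sets on all 6.

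All 6 probe sets passed the filter, a signal above 50 on at least 3 arrays. By limma, 0 of them had an adjusted p below 0.05, as did 4 of all 19196 tested probe sets (0.0208%), and 0 had an unadjusted p at or below 0.05, against 3.86% of all tested. Signals of the breeds were free of overlap in 0 of the 6, against 9.1% of all tested. The median log2 difference of the 5 genes, each by its brightest probe set, was -0.11, beside 0.00 over all tested. The intervals of HMGCS1, FDPS and SQLE include differences of more than 5-fold in the direction of Chinese Erhualian and of more than 6-fold in that of Large White, so that these counts do not show the breeds to be alike.

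**Figure D2:**
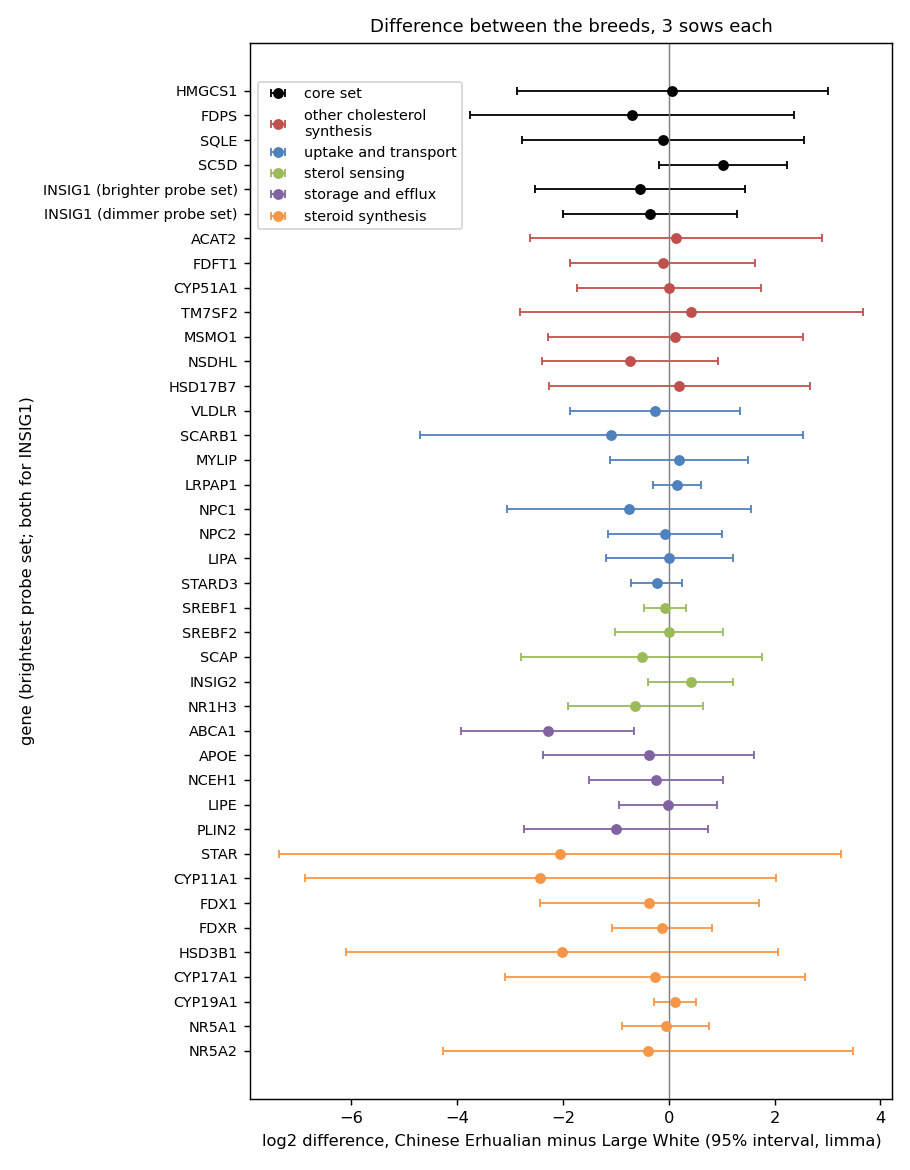
Log2 difference between the breeds (x axis, Chinese Erhualian minus Large White, 3 sows each) with its 95% interval from limma, for both INSIG1 probe sets and the brightest probe set of each other gene. The intervals of the core set all include 0, with SC5D furthest to the right at 1.03, and ABCA1 at -2.29 is the 1 gene whose interval does not include 0.

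Most of the variation of the core set lay within the breeds. Within Chinese Erhualian sows the highest signal was 14.3 times the lowest for FDPS, 11.1 times for HMGCS1, 9.34 times for SQLE, 5.52 and 3.84 times for the INSIG1 probe sets and 2.54 times for SC5D. Within Large White sows the same ratios were 7.54, 9.11, 7.25, 5.62, 4.54 and 2.71. The SD of the log2 signal within a breed, pooled over both breeds, was 1.95 for FDPS, 1.87 for HMGCS1, 1.69 for SQLE, 1.25 and 1.04 for INSIG1 and 0.74 for SC5D, beside a median of 0.30 over all tested probe sets. It was larger than that of 99.3% of the tested probe sets for FDPS and of 88.3% for SC5D, with the others in between. Breed accounted for 0.0508% of the sum of squares in HMGCS1, 0.167% in SQLE, 4.53% in FDPS, 6.63% and 4.16% in INSIG1 and 42.0% in SC5D. The median over all tested probe sets was 11.9%.

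**Figure D3:**
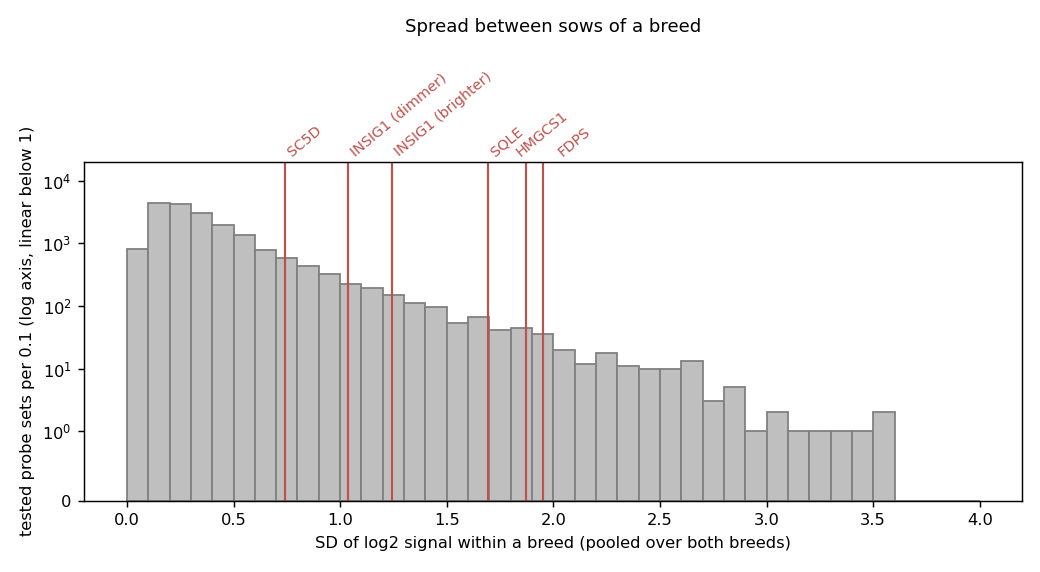
Number of tested probe sets (log axis, linear below 1) by the SD of their log2 signal within a breed, pooled over both breeds of 3 sows, in steps of 0.1. The red lines mark the core set, from SC5D at 0.74 to FDPS at 1.95, all above the median of 0.30.

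The sign of most of these breed differences changed with single sows. Without Chinese Erhualian sow 2, the log2 differences of HMGCS1, FDPS, SQLE and the brighter INSIG1 probe set were -1.09, -1.97, -1.18 and -1.21. Without Large White sow 1 they were 1.06, 0.26, 0.75 and 0.10. SC5D kept its sign, at 0.59 without Chinese Erhualian sow 2 and 0.65 without Large White sow 2. Of the 36 values with an array left out, 6 for each probe set, 11 had the other sign. Over all 16 settings, 0 of the 96 values had an adjusted p below 0.05, the lowest being 0.707.

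**Figure D4:**
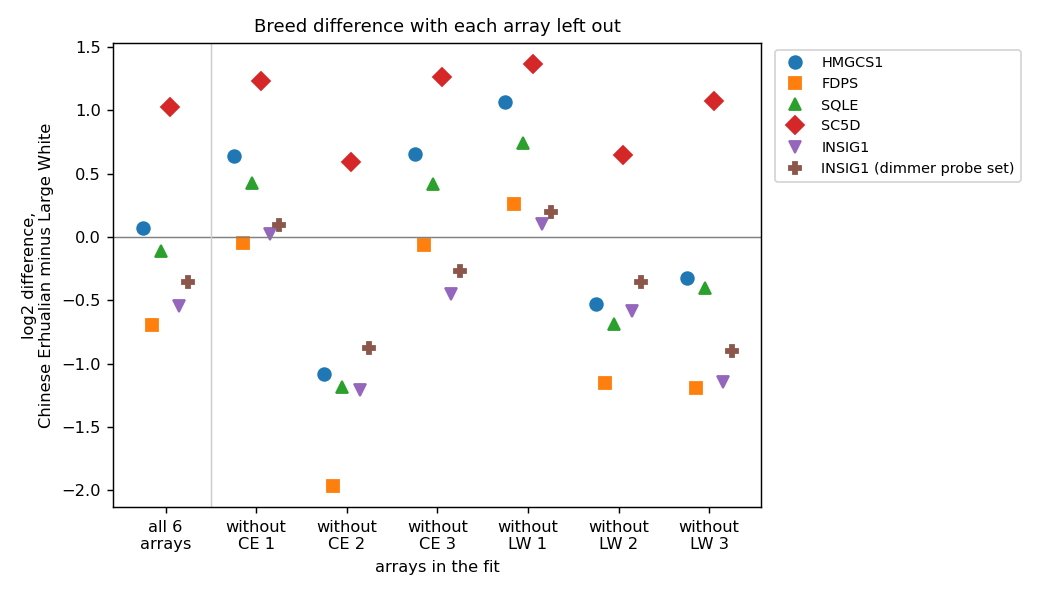
Log2 difference between the breeds (y axis, Chinese Erhualian minus Large White) of the core set with all 6 arrays and with each array left out of the limma fit (x axis). HMGCS1, FDPS, SQLE and the brighter INSIG1 probe set, marked INSIG1, lie below 0 without CE 2 (-1.97 to -1.09) and above 0 without LW 1 (0.10 to 1.06), while SC5D stays above 0.

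The other genes of cholesterol synthesis were taken from a list of 17, of which 7 had a probe set with the symbol, and 0 of the 7 had an unadjusted p at or below 0.05 by limma (0 with an adjusted p below 0.05). Their median log2 difference was 0.13. ACAT2, a thiolase that makes acetoacetyl-CoA, had 758, 3278 and 399 in Chinese Erhualian sows, against 4247, 412 and 422 in Large White sows. FDFT1, which makes squalene from farnesyl pyrophosphate, had 1605, 4988 and 1341, against 6028, 1324 and 1704 in Large White sows. As in the core set, Chinese Erhualian sow 2 and Large White sow 1 were the high ones.

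Among the enzymes that act on the sterol ring, CYP51A1 (CYP51 in the probe table), the lanosterol demethylase, had 1107, 3959 and 941 in Chinese Erhualian sows, against 3675, 1009 and 1091 in Large White sows. HSD17B7, a sterol ketoreductase, had 304, 2039 and 243, against 1457, 254 and 268 in Large White sows. NSDHL, a sterol dehydrogenase, had 296, 858 and 225, against 1468, 464 and 385 in Large White sows. TM7SF2, a sterol reductase, also had a signal of 1347 in Chinese Erhualian sow 1, beside 3056 and 169 in sows 2 and 3, against 3196, 295 and 301 in Large White sows. In it Chinese Erhualian sow 1 also lay well above the 3 lowest sows.

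The pattern was counted after the values had been seen, as a description. Chinese Erhualian sow 2 and Large White sow 1 were the 2 highest arrays in 5 of the 5 core genes and 7 of the 7 other synthesis genes. They were so in 2985 of the 19196 tested probe sets (15.6%). The count takes the order alone, whatever the step below the 2 sows. In SC5D the second highest array was only 1.03 times the third, and on the dimmer NSDHL probe set 1.05 times. The same held for 2 of 8 genes of uptake and transport, 2 of 5 of sterol sensing, 1 of 5 of storage and efflux and 8 of 9 of steroid synthesis. Of the cell type markers it held for 3 of 9 of granulosa, 3 of 7 of theca, 0 of 8 of epithelium, 0 of 5 of leukocytes and 1 of 4 of endothelium. Steroid synthesis, granulosa and theca share genes.

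**Figure D5:**
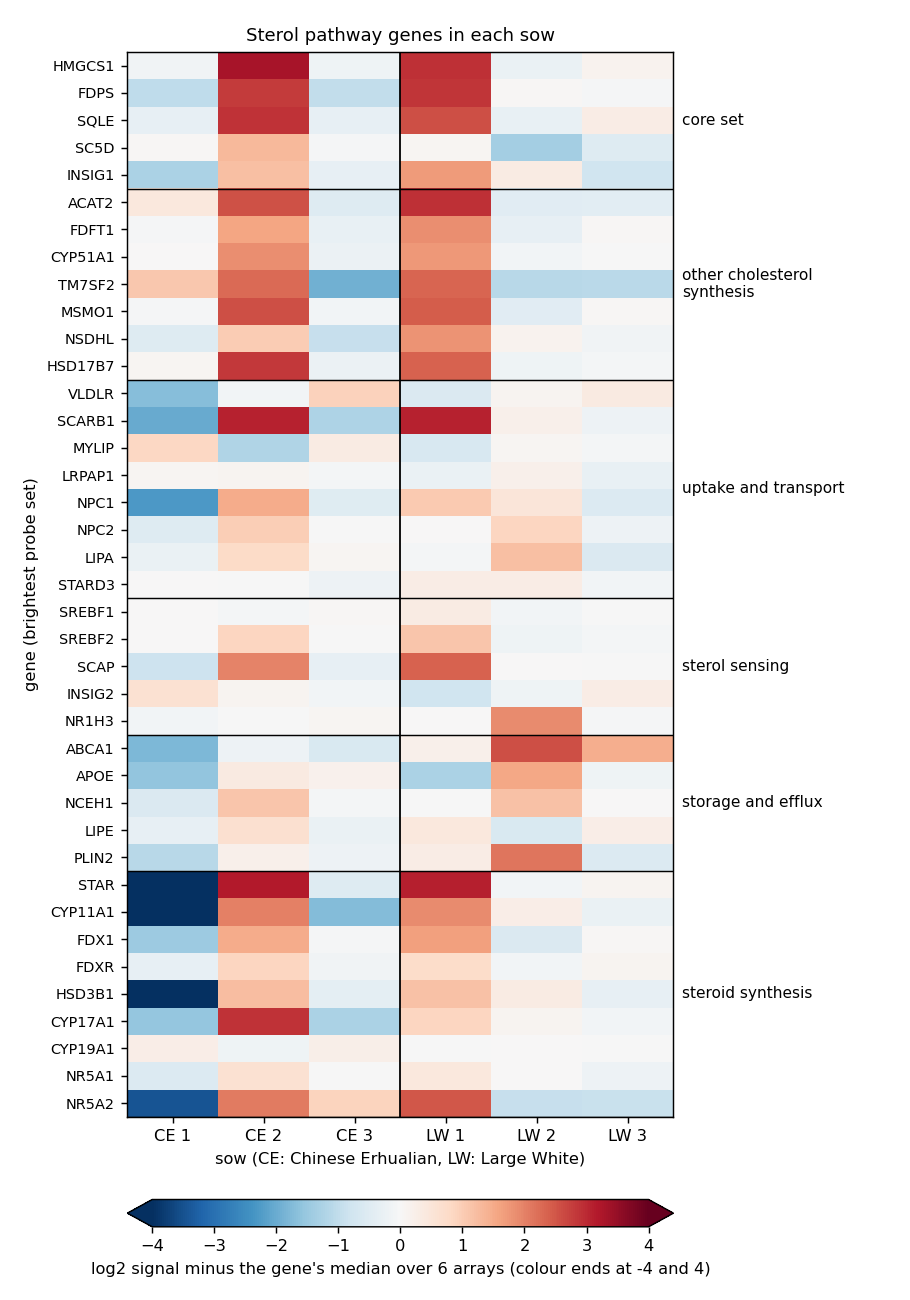
Log2 signal of each gene (rows, brightest probe set) minus its own median over the 6 arrays, by sow (columns, CE Chinese Erhualian, LW Large White). The core set and the other cholesterol synthesis genes are high in CE 2 and, other than SC5D, in LW 1, where the list medians of the core set are 2.81 and 2.57, while ABCA1, APOE, PLIN2 and NR1H3 are highest in LW 2.

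Of 12 genes of uptake and transport, 8 had a probe set, and 0 had an unadjusted p at or below 0.05 by limma (0 adjusted), with a median log2 difference of -0.15. SCARB1, the HDL receptor, had 299, 10077 and 511 in Chinese Erhualian sows, against 10204, 1378 and 1048 in Large White sows. Its breed difference on the log2 scale was -1.09 (SE 1.5, limma adjusted p = 0.993), with the same high sows as the core set. It was -2.65 without Chinese Erhualian sow 2 (unadjusted p = 0.0472 by limma), -0.11 without Chinese Erhualian sow 1, -0.50 without Chinese Erhualian sow 3, -0.06 without Large White sow 1 and -1.70 without Large White sow 3. NPC1, which moves cholesterol out of the lysosome, had 304, 4193 and 1067 in Chinese Erhualian sows, against 3074, 2069 and 1012 in Large White sows. VLDLR, a receptor for triglyceride-rich lipoproteins, had 499, 1535 and 3131, against 1101, 1752 and 2121 in Large White sows. The sows that were high in the core set were not the high ones in VLDLR. MYLIP, a ubiquitin ligase that lowers lipoprotein uptake, had its lowest signals there, 321 in Chinese Erhualian sow 2 and 475 in Large White sow 1, beside 928 and 1328 in the other Chinese Erhualian and 705 and 785 in the other Large White sows.

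Of 9 genes of sterol sensing, 5 had a probe set, and 0 had an unadjusted p at or below 0.05 by limma (0 adjusted). SCAP, the escort of SREBP, had 418, 2926 and 591 in Chinese Erhualian sows, against 3840, 749 and 734 in Large White sows. SREBF2, the gene of the SREBP that drives cholesterol synthesis, had 1480, 2666 and 1460 on its brightest probe set, against 3153, 1292 and 1399 in Large White sows (log2 difference 0.01, SE 0.42, limma adjusted p = 1.0). Its other 3 probe sets were dim, at 53.5 to 138, and their log2 differences lay between -0.08 and 0.07. SREBF1, the gene of the SREBP better known for fatty acid synthesis, lay at 63.1 to 85.1 in all 6 sows. INSIG2, the other INSIG, had 370, 262 and 227 in Chinese Erhualian sows, against 142, 216 and 301 in Large White sows (log2 difference 0.42, SE 0.33, limma adjusted p = 0.993), with its lowest signal where INSIG1 had its highest. The difference of INSIG2 was 0.13 without Large White sow 1 and 0.68 without Large White sow 3.

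Among the 7 genes of storage and efflux, 5 had a probe set. ABCA1, which exports cholesterol to apolipoproteins, had 65.9, 197 and 151 in Chinese Erhualian sows, against 265, 1371 and 631 in Large White sows. The breeds did not overlap, and the log2 difference was -2.29 (SE 0.68, 95% interval -3.92 to -0.66, unadjusted p = 0.0134 by limma). Its adjusted p was 0.993, and the exact permutation p was 0.1, the smallest possible. The unadjusted call of ABCA1 was lost with the unpaired test that the methods name, whose unadjusted p was 0.0513. It was the 1 gene of the 34 tested in the 5 pathway lists (2.94%) at an unadjusted p at or below 0.05, beside 3.86% of all tested probe sets. Without Large White sow 2 its log2 difference was -1.71 (unadjusted p = 0.0334 by limma). Myeloid cells also express ABCA1. The leukocyte markers summed to 7568 in Large White sow 2, with TYROBP at 5138, and to 1418 to 2880 in the other 5 sows. Large White sow 3, second highest in ABCA1, had a sum of 1878, and Chinese Erhualian sow 3 had 2880. The part of leukocytes in the ABCA1 result was not tested.

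STAR, which moves cholesterol into the mitochondrion for steroid synthesis, had 27.0, 12624 and 982 in Chinese Erhualian sows, against 12051, 1304 and 1516 in Large White sows on its brighter probe set. Chinese Erhualian sow 2 and Large White sow 1, high in the core set, were high in STAR as well. The log2 difference of STAR was -2.05 (SE 2.20, limma adjusted p = 0.993), and 0.29 without Chinese Erhualian sow 1. Of the 9 tested genes of steroid synthesis, 0 had an unadjusted p at or below 0.05 by limma (0 adjusted).

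The 8 other genes closest to the mean profile of the core set were named, by the root mean square difference of log2 signals centred on their medians over the 6 arrays. The mean profile itself was -0.55, 2.3 and -0.37 in Chinese Erhualian sows and 2.03, -0.31 and -0.18 in Large White sows. GGT1, a gamma-glutamyltransferase of glutathione breakdown, was closest at 0.194, followed by FDXR, the reductase that feeds electrons to mitochondrial steroid enzymes, at 0.213 on 1 of its 3 probe sets, and HAGH, a glyoxalase, at 0.233. DDT, a relative of the cytokine MIF, lay at 0.262 and SCAP at 0.269. ELOVL6, a fatty acid elongase, lay at 0.310, MSMO1, a sterol methyl oxidase, at 0.317 and NDUFB11, a subunit of respiratory complex I, at 0.318. The distance is that of the closest probe set of a gene, and the 4 tested probe sets of GGT1 had log2 differences between the breeds of -0.47 to 0.21, those of ELOVL6, also 4, -0.79 to 0.30. GGT1 had 37.1, 350 and 55.1 in Chinese Erhualian sows, against 258, 63.6 and 66.1 in Large White sows. MSMO1 had 1231, 7559 and 1188, against 6827, 939 and 1327 in Large White sows. Of the core genes, SQLE itself was closest to the mean profile at 0.388, and SC5D furthest from it at 1.03. The 8 genes were picked as the closest of all tested probe sets with a symbol. A core gene was not picked by its distance and stands by its brightest probe set. The distances of the 8 genes and of the core genes are therefore not comparable.

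The follicle label was set against cell type markers. INHA, known from granulosa cells, had a signal of 446 in Chinese Erhualian sow 1 and of 6510 to 10684 in the other 5 sows. Of the 10 granulosa markers, 2 were highest in Chinese Erhualian sow 1. INHBA had 899 there and 233 to 387 in the other 5 sows. CYP19A1 had 119 there on its brightest probe set, against 88.4 to 117. Its dimmer probe sets disagreed, with 81.2, 42.6 and 23.9 there, against 103, 41.1 and 25.9 in Chinese Erhualian sow 2. INSL3 of the theca interna lay at 48.5 in Chinese Erhualian sow 1, CYP11A1 at 63.9 and NR5A2 at 84.3. These signals were near or not far above the 50 used by the filter. ACTA2 and DCN, known from theca externa and stroma, lay at 8013 to 12015 on every array on their brightest probe sets, and FSHR and CYP19A1 at 11.9 to 60.8 and 88.4 to 119. The 10 granulosa markers summed to 3646 to 21719 in Chinese Erhualian sows, against 15076 to 21385 in Large White sows. The 7 theca markers with a probe set, STAR and CYP11A1 among them, summed to 49659 in Chinese Erhualian sow 2 and 42777 in Large White sow 1, beside 18670 and 24050 in the other Chinese Erhualian and 27451 and 27555 in the other Large White sows. Without STAR and CYP11A1 the other 5 summed to 18579, 23515 and 22064 in Chinese Erhualian and 18516, 22269 and 23159 in Large White sows. Large White sow 1 was then the lowest of the 6, but ACTA2 and DCN led that sum on every array. CYP17A1, INSL3 and LHCGR were each highest in Chinese Erhualian sow 2, at 1886, 3047 and 568. In Large White sow 1, CYP17A1 was second highest at 459, while INSL3 (1121) and LHCGR (88.7) lay below the other Large White sows. The 3 prime to 5 prime signal ratio of GAPDH, a measure of RNA integrity, was 1.36 in Chinese Erhualian sow 2 and 1.21 in Large White sow 1, the lowest of the 6, beside 1.73 and 1.85 in the other Chinese Erhualian and 1.39 and 1.60 in the other Large White sows. That of actin was 2.66 and 2.13 in those 2 sows, beside 1.96 and 2.10 in the other Chinese Erhualian and 1.5 and 1.72 in the other Large White sows. The part of theca cell content and of RNA integrity in the pattern of the core set was not tested.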

How the data were processed

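Normalized signal intensities of 6 Affymetrix porcine arrays, 1 per sow, were used. The authors made these deposited intensities with MAS5 (version 2.3.1 in the submitters' processing notes), scaled each array to a common target and applied the invariant set normalization of dChip. Values are linear, with array medians of 173 to 187, and the number of arrays limits the precision.

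After removal of 188 control probe sets, log2 was taken of the signals, with a floor of 1. Probe sets above 50 on at least 3 of 6 arrays (19196 of 23935) were tested with limma 3.58.1 in R 4.3.3, breed as the only term, eBayes with a variance trend, 2-sided, with Benjamini-Hochberg adjustment over all tested. The exact permutation test used the 20 assignments of 3 arrays to a breed. Tables were made in Python 3.11.15 with pandas 2.3.3 and figures with matplotlib 3.10.9. The procedure was run on simulated data in which every probe set had the median SD within a breed. The core set varied more than that, so that the simulation does not speak for its genes.

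Gene symbols came from the probe table, where 10099 probe sets have 1 symbol, 198 several and 13826 none. A gene of a list stands by its brightest probe set, also in summed signals. Of the 9989 probe sets with 1 symbol whose gene ID is in RefSeq's table (Sscrofa11.1), 0 had a changed symbol. No sequences were analysed.

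Named genes are the core set, list genes with an unadjusted p at or below 0.05, STAR, SCARB1, SREBF2 and INSIG2, and the 8 genes nearest to the core profile. Other genes of the lists were named after their values were seen. The core set and the lists were chosen with earlier results of these data known. The alternatives tried were median scaling, quantile normalization, other filters, an offset of 50, a constant prior variance, array weights, a replicate block, the methods' t-test, each array left out and the median over a gene's probe sets.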

Additional observations from a re-analysis of the deposited data

How the results depend on the processing

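Of the 16 settings tried on the core set, all left 0 of 6 probe sets with an adjusted p below 0.05. The count at an unadjusted p at or below 0.05 was 1 with array weights (SC5D) and 0 to 1 with an array left out. With each array left out in turn, the log2 difference ran from -1.18 to 0.75 for SQLE, 0.59 to 1.37 for SC5D, -1.09 to 1.06 for HMGCS1, -1.97 to 0.26 for FDPS, -1.21 to 0.10 for the brighter and -0.90 to 0.20 for the dimmer INSIG1 probe set, -0.28 to 0.41 for SREBF2, -2.65 to -0.06 for SCARB1, 0.13 to 0.68 for INSIG2 and -4.14 to 0.29 for STAR. Array weights gave SQLE 0.20, and the cause was not tested. Over the pathway lists, the 1 gene at an unadjusted p at or below 0.05 was ABCA1. The count became 0 with the t-test unpaired (2-sided) and stayed 1 with it paired by number. With an array left out it was 1 to 4, 4 without Chinese Erhualian sow 2. The 4 adjusted calls over all probe sets became 2 with an offset of 50 and 11 with array weights. With an array left out, there were 0 to 4. With the methods' t-test there were 0, whether unpaired or paired by number (846 and 930 at an unadjusted p). Both counts lie below the one the paper reports at that threshold, so that its test was not reproduced. The 741 at an unadjusted p became 1303 with array weights and 351 (without Large White sow 2) to 1215 (without Chinese Erhualian sow 2). The median log2 difference of the pathway genes was -0.18, and -0.13 with the median over the probe sets of a gene.

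With the replicate number of the labels as a block, 0 adjusted calls and 719 at an unadjusted p were left. Deviations of the same-numbered sows from their breed means had correlations of -0.17, -0.14 and 0.27 over the tested probe sets. Those of differently numbered sows had -0.48 to 0.51. The highest was that of Chinese Erhualian sow 2 with Large White sow 1, the sows that were high in the core set. The array correlation of these sows was 0.957, second to 0.967 for Chinese Erhualian sow 3 with Large White sow 3. The labels give no pairing beyond the number, and whether same-numbered sows shared a batch was not tested. The block leaves each log2 difference as it is by construction.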
